A study of Mus musculus with 24 samples.

Results

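The genes described are 10 that build or remodel the extracellular matrix between muscle fibres: the glycoproteins Fn1, Fbn1, Sparc and Postn, the crosslinking enzyme Lox, the collagen chaperone Serpinh1, the protease Mmp2 and its inhibitors Timp1, Timp2 and Timp3. They were taken by gene symbol from a table of 47643 Ensembl genes, and all 10 were found there. The samples were plantaris muscles, a fast muscle of the calf, from wild type C57BL/6 mice. One group of 11 samples came from mice that breathed normal air and the other of 13 from mice kept under tobacco smoke over 16 weeks. No transgene or deletion is named for either group, and the labels used here give no age or sex. The title of the series concerns long-lasting activity of the aryl hydrocarbon receptor, a transcription factor switched on by compounds of smoke, in muscle.

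Fibronectin and fibrillin glycoproteins assemble outside the cell into fibrils and microfibrils, on which collagens and growth factors are held. Lysyl oxidase ties collagen and elastin chains together, and collagen must first be folded in the secretory pathway with the help of a dedicated chaperone. Matrix metalloproteinases cut these proteins, and the tissue inhibitors of metalloproteinases (TIMPs) bind and block them. In skeletal muscle most of these transcripts are known to come from fibroblasts and other cells between the fibres rather than from the fibres themselves.

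RNA was read from the 3′ end of transcripts, and values are CPM (read counts relative to TMM-scaled library size). Total counts ran from 2515697 to 4528845 per sample, and 3 reads, taken as the detection floor, were worth 0.665 to 1.15 CPM. The muscle fibre markers (Acta1, Ckm, Myh4, Myh1, Tnnt3 and Actn3) summed to between 111785 and 177429 CPM in air and between 118997 and 149828 CPM in smoke, and all 6 were tested and detected in quantity, as is known of fast muscle. Of all genes, 10159 passed the filter on low counts. Smoke differed from air in 195 of them, which is 1.92% of those tested (edgeR quasi-likelihood test, Benjamini-Hochberg adjusted p under 0.05). Each sample is labelled as a replicate of its group but not tied to an animal, so the p-values measure the spread between these samples, which may be partly technical.

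Of the 10 genes, 8 passed the filter, and none of the 8 was called by edgeR at an adjusted p under 0.05, against a background of 1.92%. Below an unadjusted p of 0.05 were 4 of the 8 (Fn1, Fbn1, Serpinh1 and Mmp2), all lower under smoke by 20.3% to 25.0%, while 15.5% of all tested genes were below that p and 7.95% were so and lower. DESeq2 called 2, Fn1 and Fbn1, against a background of 3.18%, and limma voom called 1, Fn1, against 1.72%. Without the filter edgeR called 1, Fbn1, against 0.727%, and with 1 surrogate variable it called 3, Fn1, Fbn1 and Serpinh1, against 4.29%. The log2 fold change was negative for 6 of the 8, against 48.4% of all tested genes, with a median of -0.35 beside 0.0066 over all tested genes. These counts describe the 8 genes and are no test of them as a group. In whole muscle, fewer cells of a type and less RNA per cell cannot be told apart.

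**Figure D1:**
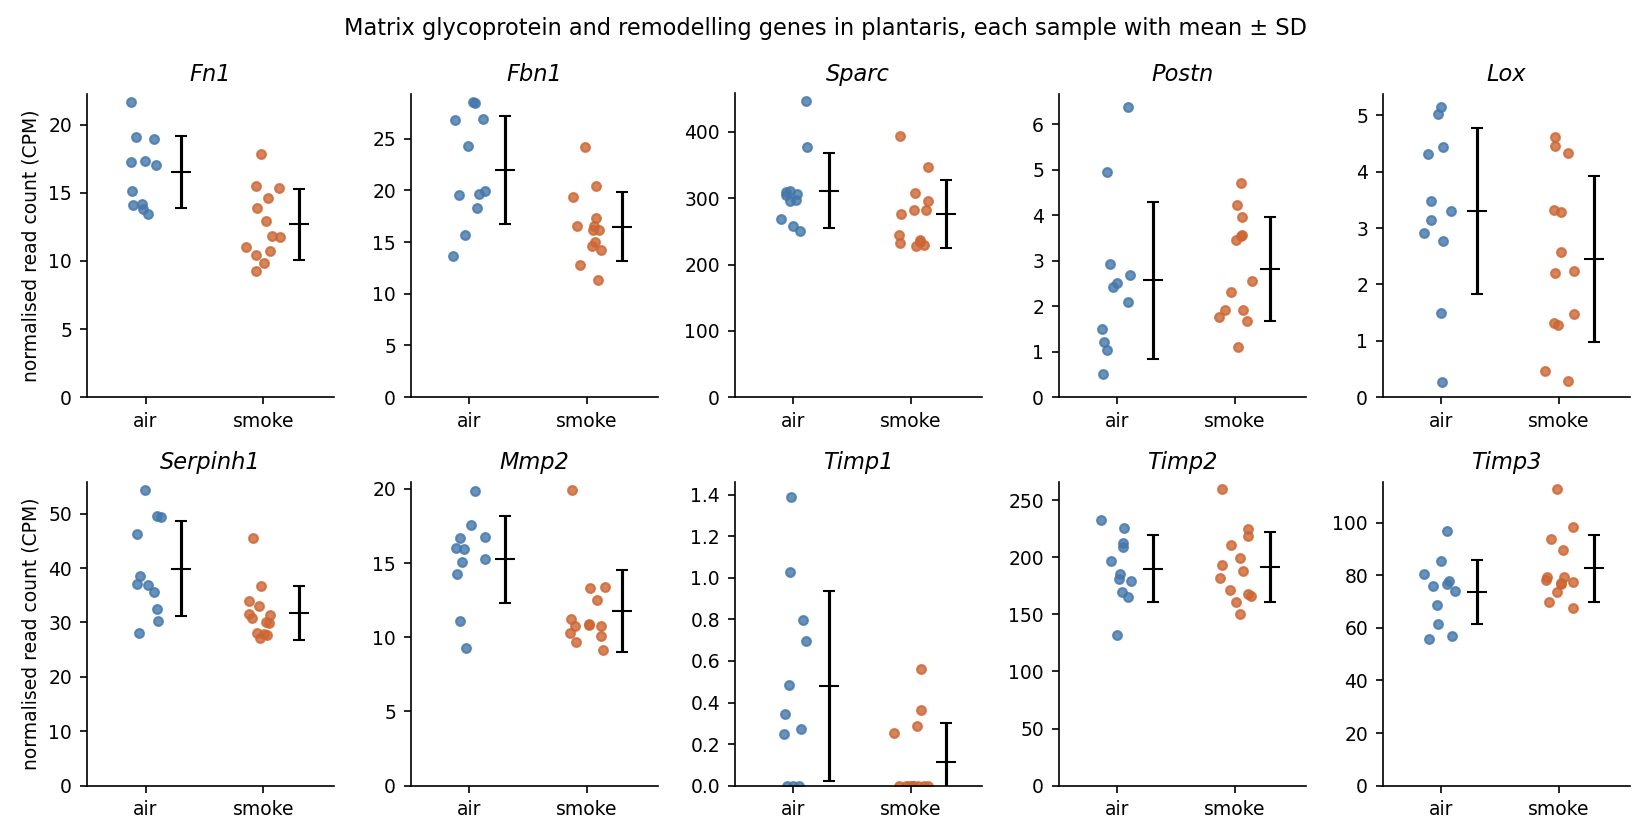
Normalised read count (CPM, linear axes from 0) of the 10 genes in each of 11 air and 13 smoke samples, with the mean and SD beside the points. Fn1, Fbn1, Serpinh1 and Mmp2 sit lower in smoke with overlapping groups, Timp2 sits at the same height in both, and Timp1 stays near 0.

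Fn1 encodes fibronectin, the glycoprotein that cells grip through integrins and on which other matrix proteins assemble. Its lowest, median and highest values were 13.5, 17.0 and 21.7 CPM in air and 9.24, 11.8 and 17.9 CPM in smoke. In 8 of 13 smoke samples Fn1 was below the lowest air sample, and 3 of 11 air samples were above the highest smoke sample, so the groups overlapped in the middle. The mean was 16.5 ± 2.65 CPM (SD, n = 11) in air and 12.7 ± 2.59 CPM (SD, n = 13) in smoke. The log2 fold change was -0.39 (SE 0.11, interval of 95% from -0.61 to -0.17, edgeR adjusted p = 0.0552), and 12 of the 13 smoke samples lay under the mean of air.

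Fbn1 encodes fibrillin, the main protein of microfibrils, which also store latent TGF-beta. It ran from 13.6 over a median of 19.9 to 28.5 CPM in air and from 11.4 over 16.2 to 24.2 CPM in smoke. Above the highest smoke sample lay 5 of 11 air samples, while only 2 of 13 smoke samples lay below the lowest air sample. Its log2 fold change was -0.42 (SE 0.12, interval of 95% from -0.66 to -0.17, edgeR adjusted p = 0.0643), and again 12 of the 13 smoke samples lay under the mean of air.

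Sparc, also called osteonectin, is a collagen-binding glycoprotein of the matricellular kind, which tunes the contact of cells with the matrix. It ran from 250 over 304 to 447 CPM in air and from 228.5 over 276 to 393 CPM in smoke. In 6 of 13 smoke samples Sparc was below the lowest air sample, yet the ranges of the groups overlapped widely. The log2 fold change was -0.17 (SE 0.089, interval of 95% from -0.36 to 0.0068, edgeR adjusted p = 0.346). Without air replicate 1, the highest air sample, it was -0.11, and without smoke replicate 2, the highest smoke sample, -0.23 (edgeR adjusted p = 0.566 and 0.168). With 732 to 1610 reads per sample it was the most deeply read of the 10 genes.

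Postn, which encodes periostin, a glycoprotein of tendon and of healing tissue, did not pass the filter. It had 2 to 23 reads per sample, and its mean was 2.57 ± 1.74 CPM (SD, n = 11) in air and 2.83 ± 1.14 CPM (SD, n = 13) in smoke. Its values ran from 0.515 to 6.39 CPM in air and from 1.10 to 4.70 CPM in smoke, so that the smoke samples lay within the air range. In a fit without the filter its log2 fold change was 0.11 (edgeR adjusted p = 0.887 over 27644 genes).

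Lox encodes lysyl oxidase, the secreted enzyme that starts the crosslinking of collagen and elastin. With 1 to 20 reads per sample it passed the filter narrowly. It ran from 0.266 over 3.30 to 5.15 CPM in air and from 0.281 over 2.23 to 4.61 CPM in smoke, a nearly complete overlap. Its log2 fold change of -0.45 was the most negative of the 8, but its interval of 95% ran from -1.09 to 0.19 (edgeR adjusted p = 0.529). The biological coefficient of variation of Lox was 41.5%, above that of 99.5% of tested genes when ranked, whereas the other 7 lay between 13.1% and 17.3%. A difference of Lox within that interval was not detectable in these samples, and how far the depth or the spread between samples sets the interval was not tested.

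Serpinh1 encodes a chaperone of the endoplasmic reticulum that binds procollagen while it folds. It is also known as a heat shock gene and a target of TGF-beta. Its promoter is shown because Serpinh1 was among the 4 genes under an unadjusted p of 0.05 and is the one of them whose RefSeq window lies outside annotated exons. RefSeq gives the 250 bases before its start at chr7:99353240-99353489 (GRCm38.p6, minus strand), printed 5′ to 3′ with motif matches in capitals.
Serpinh1: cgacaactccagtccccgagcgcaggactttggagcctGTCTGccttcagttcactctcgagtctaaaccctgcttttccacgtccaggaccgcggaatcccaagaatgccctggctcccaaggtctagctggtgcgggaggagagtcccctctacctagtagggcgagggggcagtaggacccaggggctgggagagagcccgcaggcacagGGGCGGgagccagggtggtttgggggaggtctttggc
Searched on both strands were TGANTCA (AP-1 site), CAGAC (SMAD box), TATAAA (the box of that name near many start sites), CCAAT (a common promoter box) and, of GC-rich motifs, GGGCGG (GC box) and GCGTG (core of the response element of the aryl hydrocarbon receptor). A heat shock element was searched too, as 3 alternating units GAA, TTC and GAA with 2 free bases between neighbours. The window held a SMAD box on the opposite strand at bases 212 to 208 before the start, which 42.2% of 32851 windows of that length also held, and a GC box at bases 37 to 32, which 32.7% held. The heat shock element so spelled was in 0.466% of all windows and is not among the letters of this one.

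Serpinh1 ran from 28.0 over 37.1 to 54.4 CPM in air and from 27.1 over 30.8 to 45.6 CPM in smoke. The air samples spread upward, 4 of 11 lying above the highest smoke sample, while 3 of 13 smoke samples lay below the lowest air sample. The mean was 39.9 ± 8.74 CPM (SD, n = 11) in air and 31.8 ± 4.97 CPM (SD, n = 13) in smoke. The log2 fold change was -0.33 (SE 0.10, interval of 95% from -0.53 to -0.12, edgeR adjusted p = 0.0777), and 12 of the 13 smoke samples lay under the mean of air.

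Mmp2 encodes gelatinase A, a secreted protease that cuts denatured collagen and basement membrane proteins. It ran from 9.30 over 16.0 to 19.8 CPM in air and from 9.15 over 10.8 to 19.9 CPM in smoke. All but 1 smoke sample were below the air mean (12 of 13), and that exception, smoke replicate 13, was the highest of all 24 samples. The lowest air sample, replicate 10, lay among the low smoke samples. The mean was 15.3 ± 2.93 CPM (SD, n = 11) in air and 11.8 ± 2.77 CPM (SD, n = 13) in smoke. The log2 fold change was -0.37 (SE 0.12, interval of 95% from -0.62 to -0.12, edgeR adjusted p = 0.109).

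Both inhibitors tested had log2 fold changes at or above 0, although that of Timp2 turned sign in 6 of 24 fits that left out 1 sample. Timp2, which blocks Mmp2 and also takes part in its activation at the cell surface, ran from 132 over 185 to 232.9 CPM in air and from 150 over 188 to 259 CPM in smoke. The groups overlapped nearly in full, and the log2 fold change was 0.014 (interval of 95% from -0.15 to 0.18, edgeR adjusted p = 0.960). On the linear scale the interval runs from 0.899 to 1.13 times the level in air. Timp1, the inhibitor known to be induced in inflamed tissue, did not pass the filter: it had 19 reads over 11 air samples and 5 over 13 smoke samples, with 0 reads in 3 and 9 of them. Its means of 0.479 and 0.113 CPM were both under the floor, so no fold is given.

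Timp3 encodes the inhibitor that stays bound to the matrix. It ran from 55.6 over 75.8 to 96.7 CPM in air and from 67.4 over 78.4 to 113 CPM in smoke. Below the lowest smoke sample lay 3 of 11 air samples, and 2 of 13 smoke samples lay above the highest air sample. Its log2 fold change of 0.16 was the most positive of the 8 genes (SE 0.085, interval of 95% from -0.012 to 0.33, edgeR adjusted p = 0.362). Its promoter is shown because Timp3 was the most positive gene and because it holds the receptor's core motif. The 210 bases before the first annotated exon base are at chr10:86300162-86300371 (GRCm38.p6, plus strand, RefSeq), again with matches in capitals.
Timp3: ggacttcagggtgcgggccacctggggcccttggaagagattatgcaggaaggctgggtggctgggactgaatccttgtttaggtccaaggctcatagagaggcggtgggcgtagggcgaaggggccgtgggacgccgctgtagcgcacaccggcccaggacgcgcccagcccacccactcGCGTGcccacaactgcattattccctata
The match is GCGTG, at bases 69 to 65 before the RefSeq start, and 28.2% of all 250-base windows held this core. The 40 bases nearest that start are annotated as exon and are not printed. RefSeq windows of 7 genes were searched, and none of Fn1, Lox or Mmp2. Among the 7, Timp1, Timp2 and Timp3 each held 1 such core in 250 bases and the windows of Fbn1, Sparc, Postn and Serpinh1 held none. Of these windows, all 250 bases of Fbn1, 203 of Timp2 and more still of Sparc are annotated as exon in GENCODE M21, so they are not upstream sequence alone. A match of 5 letters is a description and not a binding site.

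**Figure D2:**
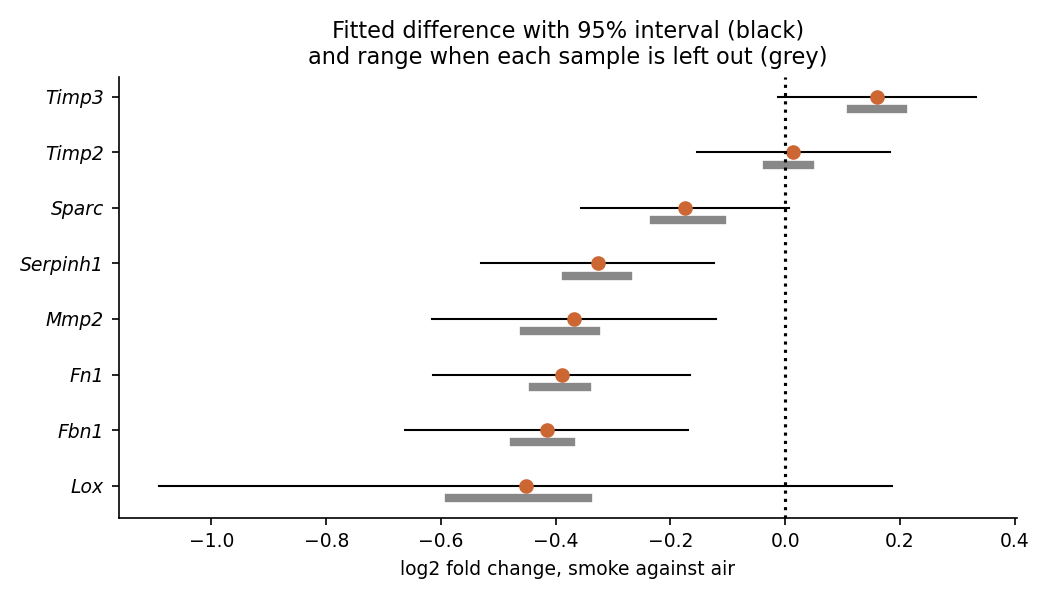
Log2 fold change of smoke against air for the 8 tested genes (points), with intervals of 95% in black and, in grey, the range over 24 fits that each left out 1 sample. The intervals of Fn1, Fbn1, Mmp2 and Serpinh1 lie below 0, and those of Sparc, Lox, Timp2 and Timp3 include 0.

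Which genes were called depended on single samples. Without smoke replicate 13, edgeR called Fn1, Fbn1, Mmp2 and Serpinh1 (adjusted p = 0.0483, 0.0498, 0.0196 and 0.0224), 4 of 8 genes against a background of 2.51% in that fit. Fn1 was called in 6 of 24 such fits, those without air replicate 4 or 11 or smoke replicate 2, 5, 12 or 13, with the lowest adjusted p at 0.0248. Fbn1 was called in 4, without air replicate 5 or 7 or smoke replicate 10 or 13 (lowest edgeR adjusted p 0.0279). Over the 24 fits 1.38% to 2.51% of all tested genes were called. Serpinh1 was called in 3, without air replicate 2 or 11 or smoke replicate 13, and Mmp2 in 2, without air replicate 10 or smoke replicate 13. Leaving out single samples never turned the sign of these 4 genes, whose log2 fold changes stayed between -0.47 and -0.27. Timp2 crossed 0, at -0.031 without smoke replicate 13 and at 0.044 at its highest.

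Since the log2 fold change was negative for Mmp2 and near or above 0 for Timp2 and Timp3, the protease was set against each inhibitor within the same sample, as the difference in log2 CPM. Mmp2 minus Timp2 ran from -4.08 to -3.29 in air, with a mean of -3.60 ± 0.22 (SD, n = 11). In smoke it ran from -4.53 to -3.67, with a mean of -3.97 ± 0.25 (SD, n = 13). All 13 smoke samples were below the air mean and below the air median, and 4 of 11 air samples lay under the highest smoke sample. The difference between the group means was -0.38 (SE 0.096, two-sided permutation p = 0.00075, adjusted p = 0.00137 over 2 such differences, which share Mmp2). It amounts to a Mmp2 to Timp2 ratio 23.0% lower, as a change of -0.38 on the log2 scale. Timp2 alone was at 0.014, so this is nearly the fold change of Mmp2 alone. That was -0.37 and not called (edgeR adjusted p = 0.109 over all genes tested).

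Mmp2 minus Timp3 had a mean of -2.24 ± 0.38 in air (SD, n = 11) and of -2.77 ± 0.30 in smoke (SD, n = 13). It lay under the mean of air in 12 of the 13 smoke samples, smoke replicate 13 being the exception, and 9 of 11 air samples lay under that highest smoke sample. The difference was -0.53 (SE 0.14, two-sided permutation p = 0.00137, adjusted p = 0.00137 over 2 differences). Over the 24 sets that left out 1 sample each, the adjusted permutation p of both differences stayed between 2e-04 and 0.00262. Mmp2 and the inhibitors were picked with their fold changes known, so these p-values are not independent evidence, and no such p was computed for other pairs of genes. Timp1 was not set against Mmp2, since it had 0 reads in 12 of 24 samples. RNA levels give neither the amount of the proteins nor their activity.

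**Figure D3:**
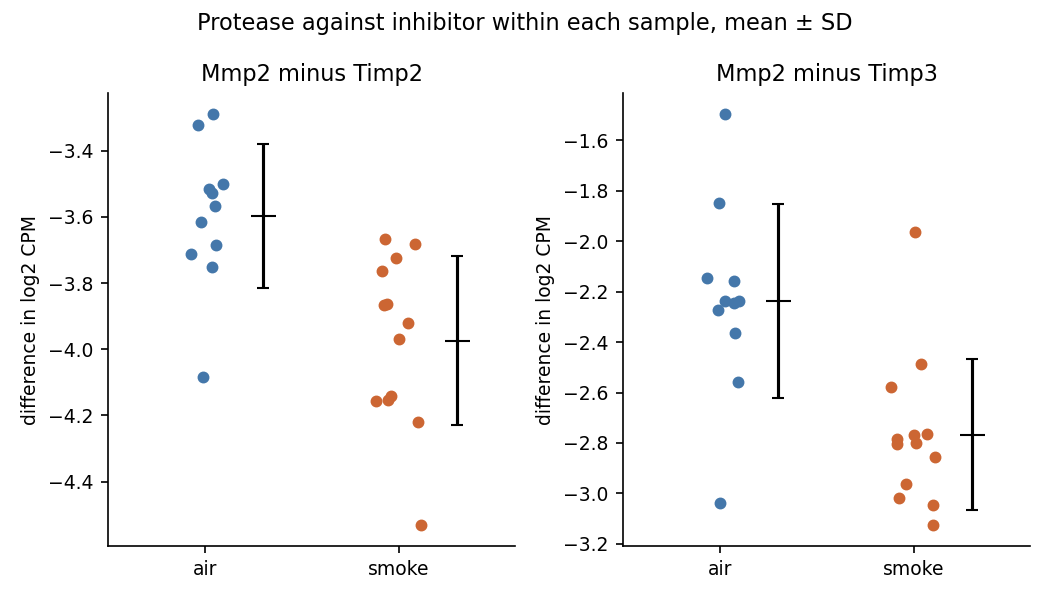
Difference in log2 CPM between Mmp2 and Timp2 (left) and between Mmp2 and Timp3 (right) in each of 11 air and 13 smoke samples, with mean and SD; the axes do not start at 0. Smoke samples lie lower in both, at means of -3.97 and -2.77 against -3.60 and -2.24, with overlap between the groups.

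Samples of the same group differed in how many of the 8 genes were low. Smoke replicate 6 was below the air mean for 8 of 8 genes, and smoke replicates 1, 4, 8, 9 and 11 for 7 of 8. Smoke replicates 2 and 13 were below it for only 3 of 8. Among air samples, replicate 10 was below the mean for 7 of 8 and replicates 1 and 7 for 1 of 8. The median deviation over the 8 genes ran from -0.14 to 0.33 in air samples and from -0.51 to 0.17 in smoke samples, on the log2 scale.

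**Figure D4:**
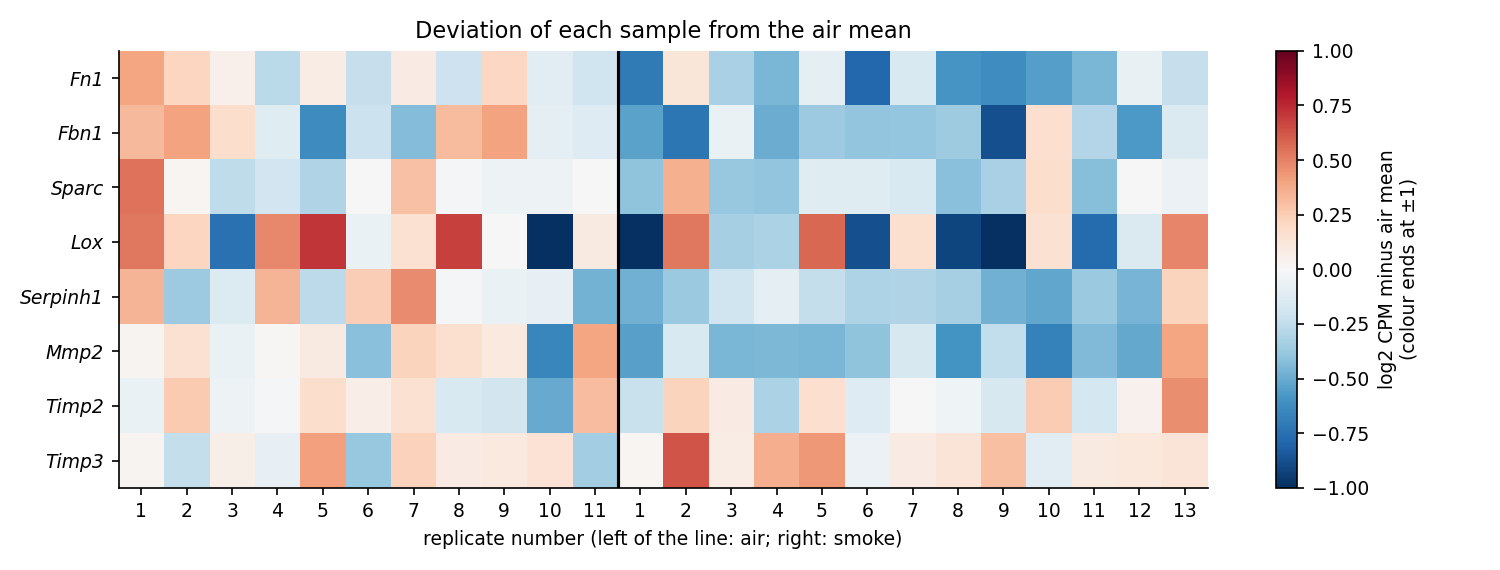
Log2 CPM of the 8 tested genes in each sample minus the air mean of the gene, blue for lower and red for higher, with colours ending at 1. Smoke replicates 2 and 13 stand out as the smoke samples with only 3 of 8 genes below the air mean, and the row of Lox has the widest spread.

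With group means removed, the 8 genes gave 28 pairs, and 25 of the 28 correlations over 24 samples were positive, with a median Pearson's r of 0.18. These pairs share genes and samples, and no such share was computed for pairs of other genes. Only Lox with Timp2 passed adjustment over the 28 pairs, with r 0.68 (permutation p = 0.00039, adjusted p = 0.0109) and Spearman's rho 0.63 (permutation p = 0.00154, adjusted p = 0.0431). Leaving out air replicate 10 and smoke replicate 1, the extremes of Lox, r was 0.52 (permutation p = 0.0203). Within air samples the r of Lox with Timp2 was 0.62 (n = 11) and within smoke samples 0.74 (n = 13). When each pair left out the 2 samples farthest from the median of its own first gene, no pair passed adjustment. Mmp2 with Timp2 had r 0.59 (permutation p = 0.00399, adjusted p = 0.0559) and rho 0.40 (permutation p = 0.0524), and r dropped to 0.23 without smoke replicate 13 and air replicate 10, so that it rested on those samples. Fn1 with Lox had r 0.53 (permutation p = 0.00977, adjusted p = 0.0605) and rho 0.59 (permutation p = 0.00472), and r was 0.46 (permutation p = 0.0343) without smoke replicate 2 and air replicate 1. Fn1 with Sparc, at r 0.53 (permutation p = 0.0101, adjusted p = 0.0605) and rho 0.45 (permutation p = 0.032), dropped to 0.24 without the same samples. Lox with Mmp2, at r 0.52 (permutation p = 0.0108, adjusted p = 0.0605) and rho 0.46 (permutation p = 0.0245), dropped to 0.30 without air replicate 10 and smoke replicate 1. The lowest r was that of Fbn1 with Timp3, at -0.42 (permutation p = 0.0497, adjusted p = 0.174; rho -0.29, permutation p = 0.191), and it was -0.21 without air replicate 5 and smoke replicate 10. Fbn1 and Serpinh1 had r of 0.012 with each other (permutation p = 0.960; rho 0.043, permutation p = 0.849; r -0.020 without 2 samples).

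Among 10151 other tested genes, those most like the mean of the 8 over the 24 samples were S100a6, at r 0.83, and Tgfbi at 0.79, an integrin-binding matrix protein induced by TGF-beta. They were followed by Tnmd, the tendon cell marker tenomodulin, at 0.75 and Pcolce, an enhancer of procollagen processing, at 0.75. The others of the first 10 were Gstt3 at 0.75, the proteoglycan Prelp at 0.73, the collagen VI chain Col6a1 at 0.72, Sfrp5 at 0.71, and Pttg1ip and Grn at 0.69. These r values are descriptions over samples that share library depth, and 5% of the other genes had r over 0.38. The mean was weighted toward Lox, the gene with the widest spread (r 0.92 with the mean). With each gene scaled to the same spread, a choice made after the data were seen, 8 of the 10 were again among the first 10.

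Calls in the lists of related genes stand against 1.92% of all tested genes called in either direction. In the list of matricellular and other glycoproteins, 20 of 24 genes were tested and 1 was called, higher: Matn4, a matrilin, at 12.4 ± 2.66 CPM in air (SD, n = 11) and 19.0 ± 6.21 CPM in smoke (SD, n = 13). The difference in log2 was 0.61 (SE 0.14, edgeR adjusted p = 0.0172), and it overlaps Rbpjl on the opposite strand. Cilp, a cartilage matrix protein of the same list named after its values were seen, was at 17.6 ± 5.95 CPM in air (SD, n = 11) and 11.5 ± 4.31 CPM in smoke (SD, n = 13), or -0.61 in log2 (SE 0.18). It was not called by edgeR (adjusted p = 0.0579) but was by DESeq2, and 2 of the 20 genes were under an unadjusted p of 0.05. Among the receptors of the matrix, 15 of 23 were tested and 1 was called, lower: Cd44, the hyaluronan receptor, at 6.93 ± 1.87 CPM in air (SD, n = 11) and 4.22 ± 1.01 CPM in smoke (SD, n = 13). The difference in log2 was -0.71 (SE 0.16, edgeR adjusted p = 0.0142), and all 13 smoke samples lay under the mean of air. Cd44 overlaps Gm23731 on the opposite strand.

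Of the partners of Serpinh1, the 6 fibrillar collagen genes all had negative log2 fold changes, from -0.44 to -0.17 with a median of -0.27, where 48.4% of all tested genes were negative. None was called by edgeR, and 3 of the 6 were under an unadjusted p of 0.05, against 15.5% of all tested genes. Col1a1, the gene of the major type I chain, had the smallest p-value of the 6, at -0.37 in log2 (edgeR adjusted p = 0.183). The 19 tested genes that fold, process and crosslink collagen had a median of -0.0043. None of them was called, and 0 were under an unadjusted p of 0.05. The closest was Mia3, an exit factor for procollagen, at 0.12 (edgeR adjusted p = 0.405).

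The targets of HSF1, the heat shock factor known to drive Serpinh1, were tested for 9 of 10 genes. All 9 had negative log2 fold changes with a median of -0.21, against 48.4% negative among all tested genes. In other lists, 12 of 15 receptors and 8 of 10 basement membrane genes were negative, while 7 of 11 TGF-beta pathway genes were positive. A link of the HSF1 targets to Serpinh1 was not tested. Called, and lower, were 2 of the 9, against 1.92% called in either direction and 1.19% called lower over all genes. Hspa1a, an inducible HSP70 gene, was at 16.6 ± 8.23 CPM in air (SD, n = 11) and 8.26 ± 4.27 CPM in smoke (SD, n = 13), a difference of -1.02 in log2 (SE 0.23, edgeR adjusted p = 0.0142). Its reads cannot be told cleanly from those of the near-identical Hspa1b, and it overlaps Gm20481 on the opposite strand. Bag3, a partner of these chaperones, was at 321 ± 23.7 CPM in air (SD, n = 11) and 278 ± 24.2 CPM in smoke (SD, n = 13), a difference of -0.21 in log2 (SE 0.052, edgeR adjusted p = 0.0273). The call of Bag3 was lost without air replicate 3 (edgeR adjusted p = 0.0520), without smoke replicate 6 (0.0511) and without the filter (0.0591). It was also lost with the replicate number as a block (edgeR adjusted p = 0.0653), while Hspa1a was called in each of these fits. Bag3 overlaps a second annotated gene on its own strand.

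In the remaining lists of matrix and TGF-beta genes edgeR called none of the genes tested. The counts under an unadjusted p of 0.05 that follow stand against 15.5% of all tested genes, or 7.95% under it and lower. In the elastic fibre list (9 of 14 tested), 1 was under an unadjusted p of 0.05: Ltbp4, which anchors latent TGF-beta to microfibrils, at -0.23 (edgeR adjusted p = 0.242). In the basement membrane list (10 of 10), 2 were, led by the laminin chain Lamb2 at -0.25 (edgeR adjusted p = 0.115). Among the other proteases (18 of 33), 7 were, 5 lower and 2 higher, led by the serine protease Htra3 at -0.35 (edgeR adjusted p = 0.0626), which DESeq2 called. Among the other inhibitors (5 of 7), 2 were, both higher, led by A2m, a broad protease inhibitor, at 0.43 (edgeR adjusted p = 0.205). In the TGF-beta pathway (11 of 13), 3 were, led by Ski, a repressor of SMAD proteins, at -0.18 (edgeR adjusted p = 0.286). DESeq2 and limma voom called none in the elastic fibre, basement membrane, inhibitor, collagen and TGF-beta lists.

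**Figure D5:**
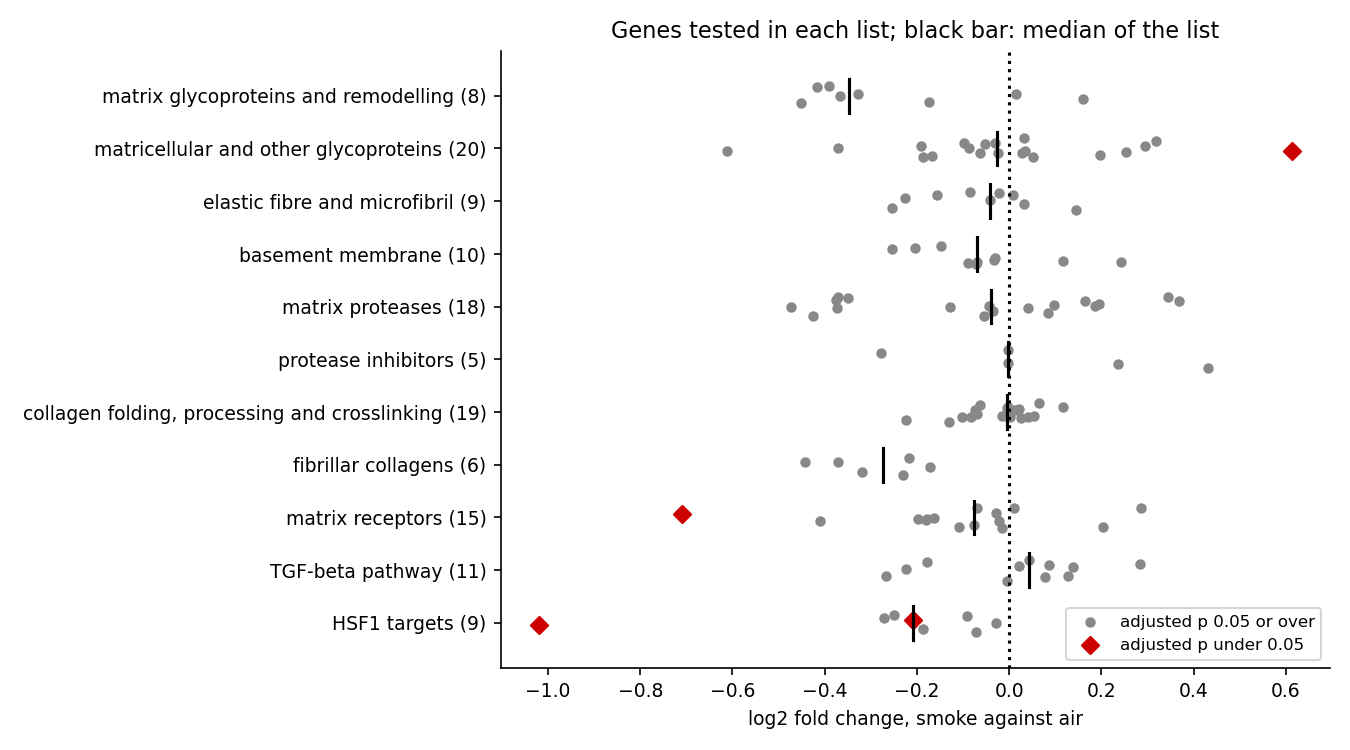
Log2 fold change of smoke against air for each tested gene of 11 lists (number tested in parentheses), with the median of each list as a black bar. Diamonds mark the 4 genes with an edgeR adjusted p under 0.05, Matn4 to the right of 0 and Cd44, Hspa1a and Bag3 to the left.

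No marker of the cells that make matrix was called. Of 9 fibroblast markers, all tested and none called by edgeR (3 under an unadjusted p of 0.05), 6 had negative and 3 positive log2 fold changes. The 9 ran from -0.39 to 0.20 with a median of -0.080. Their summed level was 1907 to 2542 CPM in air, with a median of 2321, and 1958 to 2823 CPM in smoke, with a median of 2388, most of it Gsn. Pi16 and Dpt had the smallest p-values among them, at -0.39 and -0.29 in log2 (edgeR adjusted p = 0.114 and 0.167), a choice made after their values were seen. Of 6 tendon cell markers 3 were tested (Tnmd, Scx and Fmod) and none was called, 1 being under an unadjusted p of 0.05. The 6 summed to 91.4 to 298 CPM in air, with a median of 163.9, and to 54.8 to 456 CPM in smoke, with a median of 85.4, most of it Fmod, at means of 128 CPM in air and 102 CPM in smoke (log2 fold change -0.33, edgeR adjusted p = 0.709). The log2 fold change was negative for 3 of 3 with a median of -0.33, beside -0.35 for the 8 matrix genes, and Tnmd stood at -0.75 in log2 (edgeR adjusted p = 0.216) and Scx at -0.0075 (edgeR adjusted p = 0.984). Endothelial (7 tested), mural (5), macrophage (5), adipocyte (6) and satellite cell (2) markers gave no call by edgeR. Outside the matrix, 3 of 5 blood cell genes were called lower and 3 of 6 tested Schwann cell genes higher, against 1.19% called lower and 0.728% called higher over all tested genes. The part of these cell types in the values of the 10 genes was not tested.

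The counting did not state whether it used strand. Fn1, Fbn1, Lox, Timp1 and Timp3 each overlap an annotated gene on the opposite strand and Timp2 one on its own strand, so that their counts are less certain than those of Sparc, Postn, Mmp2 and Serpinh1, which overlap none.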

How the data were processed

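RNA of whole plantaris muscle was made into QuantSeq 3′ libraries and sequenced on an Illumina HiSeq instrument, per the labels' protocols, and read on a single lane per the file headers. The S numbers in those headers run first over all smoke samples and then over all air samples. What they stand for is not stated, and any effect tied to them cannot be told apart from that of smoke. What the authors deposited is a table of whole-number counts, not normalised, with Ensembl genes in rows and 1 column per sample. The submitters' processing notes name STAR, DESeq2 and the mm9 build, without roles; the counter, annotation, strand setting and molecular identifiers are not given in the sources used here, so floors cover counting error only. Symbols came from GENCODE M21 (GRCm38), which matched 47224 IDs (99.1%). The counts carry no coordinates, and those of the promoters belong to GRCm38.p6.

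Counts were fitted in edgeR 4.0.16 (R 4.3.3): filterByExpr with a minimum count of 10, TMM scaling, quasi-likelihood test of smoke against air over 24 samples, Benjamini-Hochberg over all genes tested, calls at an adjusted p under 0.05. SE and interval were taken from the F statistic. Log2 CPM used a prior count of 2. Permutation tests drew 100000 resamples. The procedure was tested on simulated data. Alternatives were DESeq2 1.42.0, limma 3.58.1 (voom), sva 3.50.0, other scalings and filters, the replicate number as a block, and leaving out each sample. Counts of 133 pairs of samples within groups differed by more than sampling noise (chi-square per gene 2.52 to 18.5), so no samples were merged.

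The 10 genes and the gene lists were chosen with earlier results of these data known. Named from each list were all called genes or, with none, the gene with the smallest p-value, and the 10 genes most like the mean of the members. Pi16, Dpt, Cilp and Hspg2 were named after their values were seen. The difference Mmp2 minus Timp1 was planned and not run.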

Additional observations from a re-analysis of the deposited data

How the results depend on the processing

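Fn1, Fbn1, Serpinh1 and Mmp2 stayed negative and Timp3 positive in all fits run, and both protease-inhibitor differences stayed below an adjusted permutation p of 0.05, which is no independent evidence, since the fold changes that prompted them were known; which of the single genes were called differed between fits. DESeq2 called 323 genes in all, 2 of the 8 genes, 2 glycoproteins (Matn4 and Cilp) and 1 protease (Htra3). Limma voom called 1 of the 8. Without the filter edgeR called 1 of the 8, 2 glycoproteins and 1 HSF1 target, over more genes tested. With 1 surrogate variable it called 436 genes, 3 of the 8, 2 glycoproteins, 1 basement membrane gene (Lamb2) and 1 protease. The cause of these shifts was not tested. Leaving out, for each pair, the 2 samples farthest from the median of its first gene, 0 pairs of genes passed, with fewer samples. Using air samples alone, 0 passed as well. RLE and upper-quartile scaling and leaving out the 10 most abundant genes called 0 of the 8.

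Leaving out 1 sample at a time called 0 to 4 of the 8 genes, 1 to 2 glycoproteins, 0 to 1 basement membrane genes, 0 to 1 proteases, 0 to 1 fibrillar collagens and 1 to 2 HSF1 targets, and Timp2 ran from -0.031 to 0.044. Of 552 values so recomputed, 504 kept both direction and side of the threshold or stayed within the spread or 1.5 times the count, 15 passed the threshold anew, 27 counts moved further and 6, all of Timp2, changed sign.

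The replicate numbers do not pair the samples: same-numbered samples had a mean correlation of -0.0059 over 11 pairs, and 2 of 11 correlated best with their own number. With the number as a block (22 samples) edgeR called 138 genes (1.37%), 1 of the 8 (Mmp2, -0.45, adjusted p = 0.0432), 1 basement membrane gene (Hspg2), 1 protease, 1 fibrillar collagen (Col1a1), 0 receptors (Cd44 at an adjusted p of 0.0638) and 1 HSF1 target (Hspa1a; Bag3 at 0.0653), and Timp2 was at -0.033. Lox, Postn and Timp1 had at most 20, 23 and 5 reads in a sample.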
